A study of Homo sapiens with 4 samples.

Results

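The stretch of chromosome 8 from 127000000 to 129500000 (hg38), in band 8q24, holds the MYC oncogene, the long noncoding RNA (lncRNA) gene PVT1 and a row of other lncRNA genes, among them CASC8, CASC21, CASC11 and LINC00824. Its members here are all summits of 3 histone modifications that fall between those positions: 219 for acetylation of histone H3 at lysine 27 (H3K27ac), 188 for monomethylation at lysine 4 (H3K4me1) and 49 for trimethylation at lysine 4 (H3K4me3). These 456 summits were part of 202472 on chromosomes 1 to 22 and X. They were mapped by chromatin immunoprecipitation followed by sequencing (ChIP-seq) in MHCC97L, an established human hepatocellular carcinoma cell line, labelled as wild type and untreated. Each mark had 1 library and no replicate, and the input chromatin library, the last of the 4 samples, was not analysed here. A summit is the position of highest signal in a peak, and its score is the −log10 of a p-value or q-value that the authors' peak caller gave it. Scores rank summits within 1 list and are no comparison of signal between marks. The members were chosen by position alone, but the stretch itself was selected on the number and scores of its summits, so both are described without a test.

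MYC encodes a transcription factor that pairs with MAX and drives genes of growth and cell division. PVT1 lies downstream of it and hosts several microRNA genes. The long stretches around both hold few protein-coding genes, and enhancers in different parts of them act on MYC in different tissues. The neighbourhood is gained in copy number in many carcinomas, including those of the liver. H3K4me3 marks active promoters, H3K4me1 marks enhancers and the flanks of promoters, and H3K27ac marks active promoters and enhancers.

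The summits formed a block that began at MYC and ran about 1000 kb downstream, with few summits on either side of it. The 735 kb between the start of the stretch and the MYC start held 7 H3K27ac summits, 2 H3K4me1 summits and 1 H3K4me3 summit. From the MYC start at 127735434 to the end of LINC00824 at 128564679, a distance of 829 kb, there were 174 H3K27ac, 155 H3K4me1 and 46 H3K4me3 summits. This was 79.5% (95% Wilson interval 73.6 to 84.3) of the H3K27ac, 82.4% (76.4 to 87.2) of the H3K4me1 and 93.9% (83.5 to 97.9) of the H3K4me3 summits of the stretch. These intervals, like those below, take in counting error and nothing else, as the summits of 1 library do not replicate each other. Downstream of LINC00824 the remaining 935 kb held 38 H3K27ac, 31 H3K4me1 and 2 H3K4me3 summits. Past 1000 kb from the MYC start only 1 H3K27ac, 2 H3K4me1 and 1 H3K4me3 of these were left. Each of the 10 bins of 100 kb that followed the MYC start held H3K27ac summits, between 6 and 37 per bin. The 7 bins before it that lay wholly in the stretch held between 0 and 4.

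**Figure D1:**
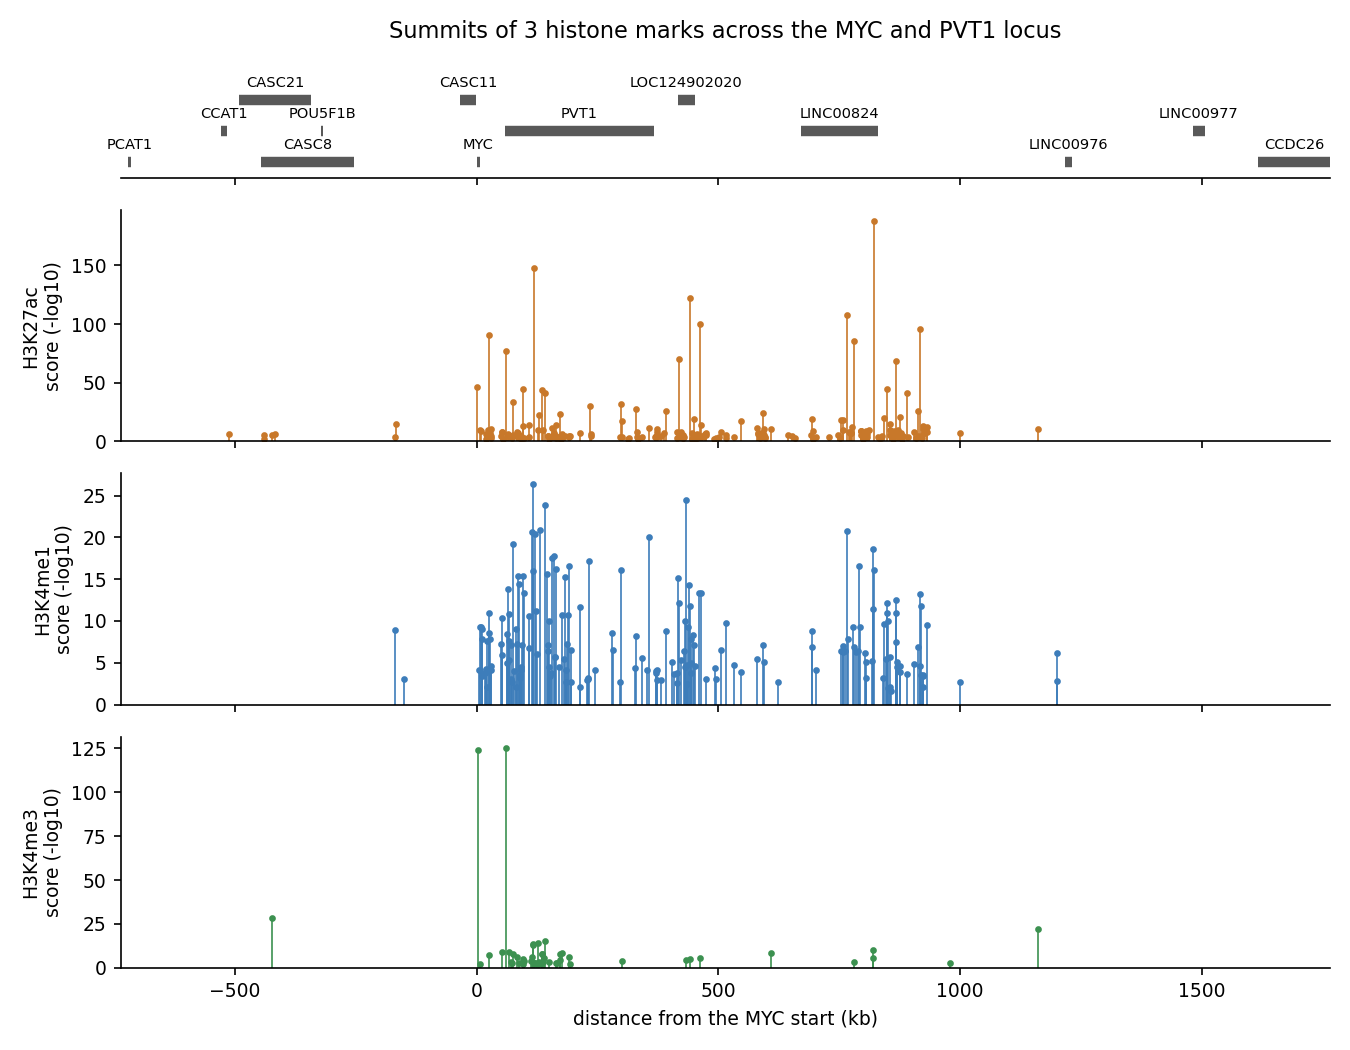
Score of each summit (−log10, one panel per mark, each with its own scale) against its distance from the MYC start in kb, with 13 of the genes of the stretch drawn as bars in the top panel. Summits crowd between the MYC start and about 1000 kb downstream, and the 2 highest H3K4me3 summits stand at MYC and at the PVT1 start.

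MYC, at chr8:127735434-127742951, carried an H3K4me3 summit and an H3K27ac summit near its start, which is its lower boundary. The H3K4me3 summit lay 1961 bp into the gene with a score of 123.9, above 99.93% of the H3K4me3 list or equal to it. The H3K27ac summit lay 977 bp into the gene with a score of 46.1, which was the 12th highest of the 219 and at percentile 90.3 of the H3K27ac list. No H3K4me1 summit lay within 5 kb of the MYC start: the first was at 5487 bp, with a score of 4.17. At the other end of the gene a weaker group held H3K27ac summits of 9.29 and 8.46, an H3K4me1 summit of 9.26 and an H3K4me3 summit of 2.07. Since the H3K4me3 summit of 123.9 lies further than 1000 bp into the gene, the summit of 2.07 is the only H3K4me3 summit within 1000 bp of a boundary of MYC.

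The PVT1 start, 59.1 kb from the MYC start, had the strongest H3K4me3 of the stretch, directly under H3K27ac. PVT1 lies at chr8:127794524-128101256, and its H3K4me3 summit 753 bp into the gene had a score of 125.4. Its H3K27ac summit 716 bp into the gene had a score of 76.6 and lay 37 bp from it. As at MYC, H3K4me1 stood back from this start, with the nearest summit 2241 bp from the H3K4me3 summit. MIR1204, the first microRNA gene inside PVT1, lies within 1000 bp of these summits and takes the same best scores. CASC11, an lncRNA gene that ends 1467 bp before the MYC start and is read in the opposite direction, was bare of all 3 marks, also 1000 bp to either side. Its nearest H3K27ac summit was the one inside MYC, 2444 bp from its boundary.

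Between MYC and PVT1 the 51.6 kb held 15 H3K27ac, 17 H3K4me1 and 2 H3K4me3 summits, in 3 groups. The first group trailed the end of MYC and was made mostly of H3K4me1. The second lay 16.8 to 29.9 kb from the MYC start around an H3K27ac summit of 90.8 at 127760865, with an H3K4me1 summit of 11.0 and an H3K4me3 summit of 7.04 within 400 bp of it. The third lay 49.5 to 53.5 kb from the MYC start, and its H3K27ac summits scored 8.15 or less. H3K4me1 accompanied 13 of these 15 H3K27ac summits within 1000 bp.

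**Figure D2:**
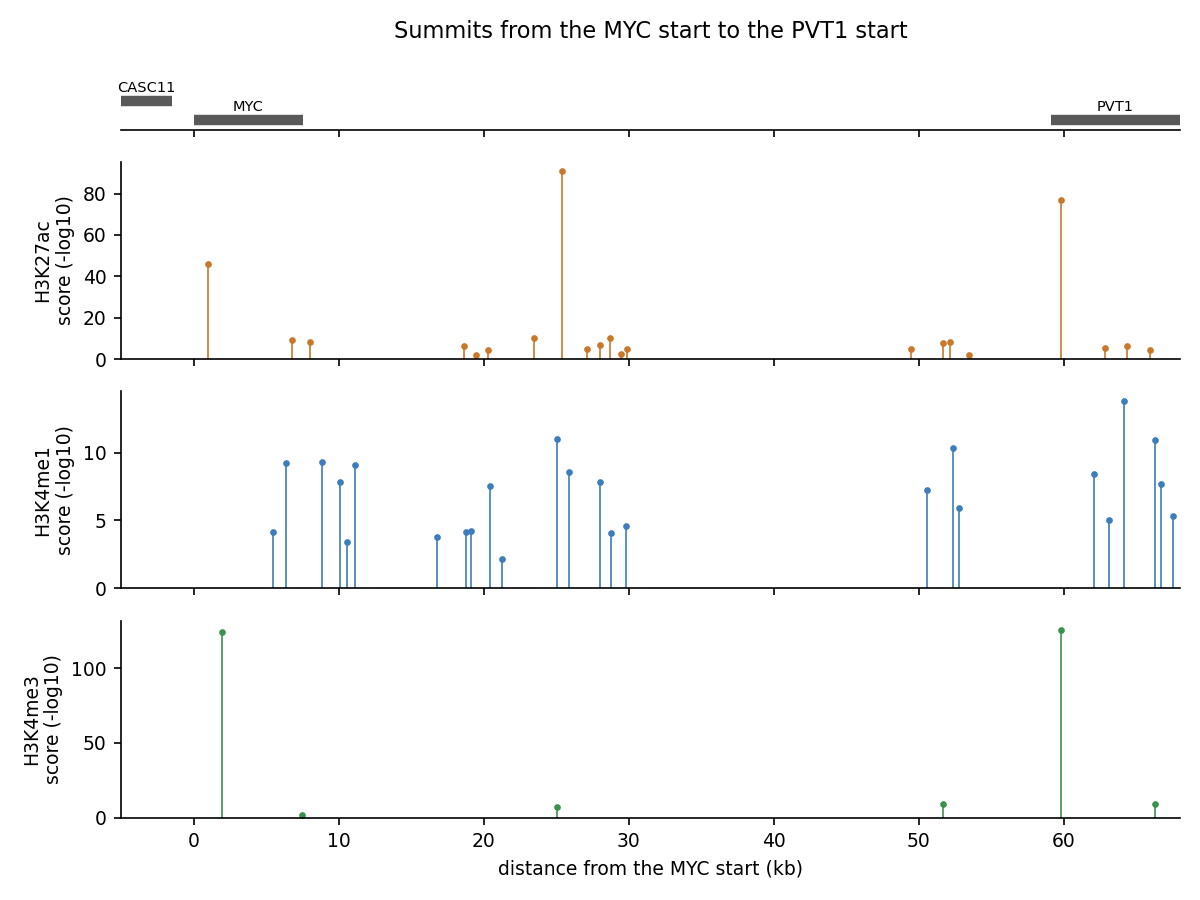
Score of each summit (−log10, one panel per mark, each with its own scale) from 5 kb before to 68 kb after the MYC start, with CASC11, MYC and PVT1 drawn as bars. High H3K4me3 and H3K27ac stand just inside MYC and PVT1, H3K4me1 starts several kb further in, and a tall H3K27ac summit of 90.8 lies 25.4 kb from the MYC start.

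PVT1 held more summits than any other gene of the stretch, 66 of H3K27ac, 73 of H3K4me1 and 35 of H3K4me3 over 307 kb. Of 18177 lncRNA genes on chromosomes 1 to 22 and X, 1 held more H3K27ac summits (LINC00607, with 69). LINC00673 alone held more H3K4me1 summits (102) and more H3K4me3 summits (40). Among all 59094 genes, 6 held more H3K27ac, 27 more H3K4me1 and 7 more H3K4me3 summits than PVT1. Longer genes can hold more summits, and these ranks are not corrected for length.

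Marks thinned out along PVT1. In the first of 3 parts of equal length, 102 kb each, there were 36 H3K27ac, 43 H3K4me1 and 27 H3K4me3 summits. The middle part held 18, 21 and 7, and the last part 12, 9 and 1. The highest scores also lay in the first part: 148.0 for H3K27ac at 127854483, 60.0 kb into the gene, and 26.4 for H3K4me1 at 127852885. The H3K27ac summit was above 99.9% of its list, and the H3K4me1 summit was the highest of that mark in the stretch. Close to the H3K27ac summit H3K4me3 was weak, at 2.52 and 2.76 within 1000 bp, and H3K4me1 had a score of 20.4 at 996 bp.

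The many H3K4me3 summits inside PVT1 were low in score. Apart from the one at the start, the 34 others ranged from 2.31 to 15.1 with a median of 3.98, against 8.23 over the whole H3K4me3 list, and 4 reached a score of 10. Of these, 33 lay between 7.17 and 134 kb from the PVT1 start with a median spacing of 2015 bp. H3K27ac lay within 1000 bp of 26 of the 34, H3K4me1 of 22 and both of 18. The highest of them, 15.1 at 127877481, had an H3K4me1 summit of 23.9 at 217 bp and an H3K27ac summit of 41.4 at 289 bp. At the PVT1 start, in contrast, H3K4me3 was high and H3K4me1 lay 2241 bp away.

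Downstream of PVT1, acetylation continued while H3K4me3 nearly ended. The 304 kb from the end of PVT1 to LINC00824 held 57 H3K27ac, 41 H3K4me1 and 4 H3K4me3 summits. Its highest H3K27ac summits had scores of 121.9 at 128177674, 100.5 at 128197526 and 70.3 at 128153437. The first and the last of these lie in LOC124902020, an lncRNA gene of the RefSeq annotation at chr8:128150924-128186762, which also held 18 H3K4me1 summits with scores up to 24.5. MIR1208, a microRNA gene just before LOC124902020, had an H3K27ac summit of 7.55 at 21 bp. The H3K4me3 summits of this segment scored between 4.74 and 8.33, and none reached a score of 10.

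LINC00824, at chr8:128405269-128564679, held the highest H3K27ac summit of the stretch. It lay at 128557095 with a score of 187.9, and 4 of the 70028 H3K27ac summits scored higher. An H3K4me1 summit of 16.2 lay 71 bp from it, and the nearest H3K4me3 summit, 10.1, lay 1411 bp away. A second strong site in the gene, H3K27ac of 107.5 at 128501064, coincided with H3K4me1 of 20.7 at a distance of 7 bp and had no H3K4me3 within 14 kb. In all, LINC00824 held 34 H3K27ac, 22 H3K4me1 and 3 H3K4me3 summits, and none of them lay within 1000 bp of either boundary. The block went on past its end to 128666559 without a break of 12 kb in H3K27ac. In that intergenic part an H3K27ac summit of 95.6 at 128653275 lay 6 bp from an H3K4me1 summit of 13.2, with the nearest H3K4me3 summit 61476 bp away.

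**Figure D3:**
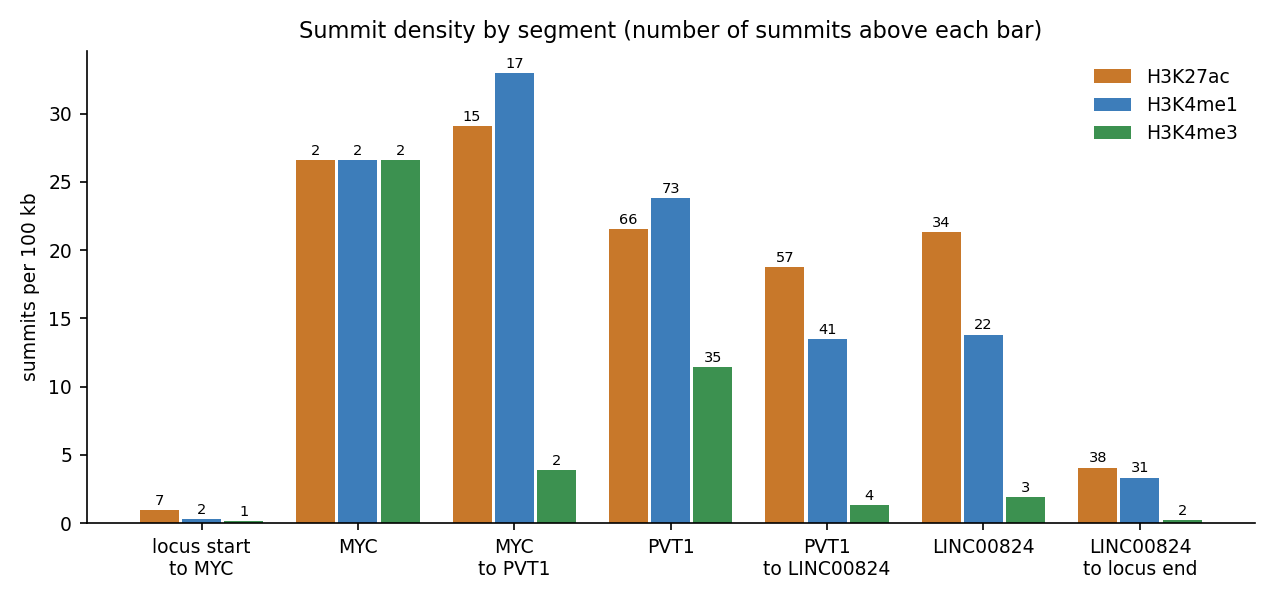
Summits per 100 kb in 7 segments set by the boundaries of MYC, PVT1 and LINC00824, one bar per mark, with the number of summits above each bar. H3K27ac stayed between 18.7 and 29.1 per 100 kb from MYC to the end of LINC00824, while H3K4me3 stood at 11.4 in PVT1 and 1.32 in the segment after it. The bars of MYC rest on 2 summits each.

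The lncRNA genes upstream of MYC carried few marks. PCAT1, PCAT2, PRNCR1, CASC19, CCAT1 and CCAT2 carried none of the marks, counting each gene with 1000 bp on both sides, and neither did POU5F1B, the only other protein-coding gene of the stretch, a retrogene copy of POU5F1. CCAT1, an lncRNA gene known for high activity in colon cancer, had its nearest H3K27ac summit, of 6.23, at 4060 bp. CASC21 and CASC8 overlap, and the part they share held 4 H3K27ac summits of 1.43 to 6.11 and an H3K4me3 summit of 28.3 at 127311890, 424 kb before the MYC start. That H3K4me3 summit was the third highest of the stretch, with H3K27ac of 5.53 at 222 bp and the nearest H3K4me1 summit 254204 bp away. An intergenic site 169 kb before the MYC start had H3K4me1 of 8.94, H3K27ac of 3.82 beside it and H3K27ac of 14.4 some 1.5 kb further on.

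Of the 33 genes that lie wholly in the stretch, 6 (18.2%) had H3K27ac within 1000 bp of a boundary, against 28.0% of all 59094 genes. H3K4me3 was found there in 3 (9.09%), against 28.5%, and H3K4me1 also in 3, against 9.77%. The 6 with H3K27ac were MYC, PVT1, MIR1204, MIR1207, MIR1208 and LOC124902020. The 3 with H3K4me3 were MYC, PVT1 and MIR1204, and the last shares the PVT1 summit. No mark lay in or within 1000 bp of 23 of the 33 (69.7%), against 57.7% of all genes. These 23 took in all 5 pseudogenes and 14 of the 20 lncRNA genes, where the share among all lncRNA genes was 59.2%. Of the 6 microRNA genes, MIR1205, MIR1206 and MIR3686 had none, although the first 2 of these lie inside PVT1. Among all microRNA genes 76.8% had none. LINC02912, inside PVT1, had an H3K4me1 summit of 11.7 and no other mark. LOC105375751 and CCDC26 reach over the ends of the stretch, and none of their summits lie within it.

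There were 5 stretches of at least 100 kb without a summit, which took up 1348 kb, or 53.9% of the locus. The widest ran 563 kb from 128936757 to the end of the locus and held LINC00976, LINC00977 and 5 other genes. Upstream of MYC, a gap of 248 kb held CCAT2 and POU5F1B, a gap of 223 kb from the start of the locus held PCAT1, PCAT2, PRNCR1, CASC19 and CCAT1, and a gap of 150 kb that ended inside MYC held CASC11 and LOC105375754. The remaining gap, 162 kb, began 999 kb after the MYC start. An isolated site at 128897411 ended it, with H3K4me3 of 22.3 and H3K27ac of 10.2 at 226 bp, outside any annotated gene. Outside the locus the nearest summits were an H3K4me3 summit 175 kb before its start and an H3K4me1 summit 50.1 kb past its end. The first and the last summit within it lay 223 kb and 563 kb from those ends.

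Over the whole stretch, the median distance between neighbours of 1 mark was shorter than over all chromosomes for H3K27ac and H3K4me3, and longer for H3K4me1. The median distance between neighbouring H3K27ac summits was 2039 bp (218 distances), against 3253 bp over chromosomes 1 to 22 and X. Of these distances 73.4% were under 5000 bp, against 56.2% over all chromosomes. For H3K4me1 the median was 2094 bp against 1767 bp, and 73.3% were under 5000 bp against 66.2%. H3K4me3 summits were further apart, with a median of 4910 bp against 7591 bp, and 24 of 48 distances were under 5000 bp, against 46.1% over all chromosomes.

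H3K27ac summits joined wherever they lay under 12000 bp apart gave 25 clusters, of which 6 held 10 or more summits and 160 summits between them. Over all chromosomes, clusters of 10 or more made up 4.65% of 22855. The largest, 54 summits over 144 kb from 127784905 to 127928809, took in the PVT1 start, MIR1204 and most of the marked part of PVT1, with 58 H3K4me1 and 35 H3K4me3 summits. Only 3 clusters in the whole list held more summits. The second, 51 summits over 137 kb from 128529627 to 128666559, spanned the end of LINC00824, with 34 H3K4me1 and 2 H3K4me3 summits. It had the highest summed score of the stretch, 763, against 674 for the first, and 13 clusters in the whole list had a higher one. The other 4 were 17 summits in and after LOC124902020, 13 from MYC to 29.9 kb after its start, 13 in LINC00824 and 12 in the intergenic sequence between PVT1 and LINC00824. No super-enhancers can be called from them, since the lists hold no read signal. With distances under 5000 bp and all summits kept, the largest cluster held 17 summits. With 12000 bp and only summits of at least 10, it held 5. The large clusters thus came apart at a shorter joining distance, and also once weak summits were left out.

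With all summits counted, the stretch stood further above the mean density in H3K27ac than in the other 2 marks. It held 87.6 H3K27ac summits per Mb, 3.79 times the mean density of chromosomes 1 to 22 and X, against 75.2 per Mb and 2.64 times for H3K4me1 and 19.6 per Mb and 1.29 times for H3K4me3. The order of H3K27ac and H3K4me1 turned over when only summits with a score of at least 5 were counted, at 2.89 and 3.82 times. That cutoff is not equally strict for these 2 marks, whose whole lists had median scores of 8.40 and 4.58. Of 1201 windows of the same length of 2.5 Mb laid end to end along the chromosomes, 15 held more H3K27ac, 100 more H3K4me1 and 330 more H3K4me3 summits. Of these windows, 1, 1 and 2 overlap the stretch itself, so it is ranked in part against its own summits. There were 0.224 H3K4me3 summits for each H3K27ac summit, against a median of 0.650 in the 876 windows with at least 20 H3K27ac summits, of which 13 had a lower ratio. The ratio of H3K4me1 to H3K27ac was 0.858, against a median of 1.21 in the same 876 windows, of which 200 had a lower ratio. Chromosome 8 as a whole was near the mean, with 23.7 H3K27ac summits per Mb. Copy number was not analysed here.

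Stretches of 2.5 Mb centred on SOX9 and on CCND1, also known for long regulatory surroundings in carcinomas, had another balance when all summits were counted. The SOX9 stretch held 145 H3K27ac, 263 H3K4me1 and 82 H3K4me3 summits, and the CCND1 stretch 124, 231 and 39. Both thus held fewer H3K27ac and more H3K4me1 summits than the MYC and PVT1 stretch. Of their H3K4me1 summits, 11.4% and 4.76% reached a score of 10, against 26.1% in the MYC and PVT1 stretch. For H3K27ac the shares were 29.0% and 36.3%, against 23.7%. Among summits of at least 10, the order in H3K4me1 therefore turned over. With all summits counted, the ratios of H3K4me1 to H3K27ac in the SOX9 and CCND1 stretches were 1.81 and 1.86. The highest H3K27ac scores of these 2 stretches were 96.1 and 95.6, against 187.9 in LINC00824.

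**Figure D4:**
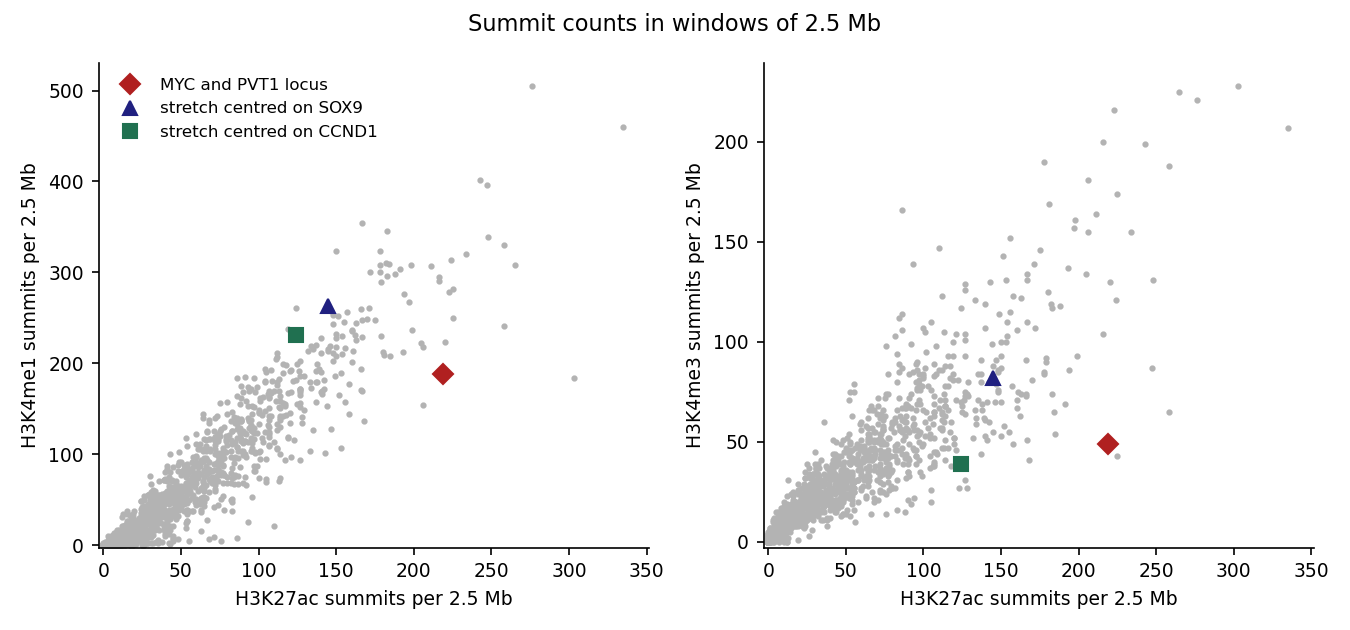
H3K4me1 summits (left) and H3K4me3 summits (right) against H3K27ac summits in 1201 windows of 2.5 Mb (grey points), with the MYC and PVT1 locus and the stretches centred on SOX9 and CCND1. The locus lies towards the lower right edge of the windows in both panels, with 219 H3K27ac, 188 H3K4me1 and 49 H3K4me3 summits.

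The density of the stretch depended on how strong a summit had to be, and in opposite ways for H3K27ac and H3K4me1. H3K27ac scores ran from 1.43 to 187.9 with a median of 5.38, below the list's 8.40, and 52 summits (23.7%, 18.6 to 29.8) reached a score of 10, against 43.5% of the list. H3K4me1 scores ran from 1.63 to 26.4 with a median of 6.39, above the list's 4.58, and 49 (26.1%, 20.3 to 32.8) reached 10, against 7.87%. H3K4me3 scores ran from 2.07 to 125.4 with a median of 5.11, below the list's 8.23, and 9 (18.4%, 9.98 to 31.4) reached 10, against 43.2%. Among summits of at least 10, densities were 2.07 times the mean for H3K27ac, 8.73 times for H3K4me1 and 0.547 times for H3K4me3. H3K4me1 was then furthest above its own mean. This order of marks rests on a cutoff that is not equally strict, as it keeps 43.5% of the H3K27ac list and 7.87% of the H3K4me1 list. Scores of 50 or more belonged to 11 H3K27ac summits of the stretch (5.02%), against 8.29% of the list. Among the H3K4me3 summits 2 (4.08%) were as high, those of MYC and PVT1, against 16.3%.

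The strongest sites of the 3 marks were shared in part, and PVT1 and LINC00824 held summits among the 10 highest of every mark. Of the 10 H3K27ac summits with the highest scores, from 70.3 to 187.9, PVT1 held 2, LOC124902020 2, LINC00824 3 and intergenic sequence 3. H3K4me1 lay within 1000 bp of 8 of them and H3K4me3 of 5. Of the 10 highest H3K4me1 summits, from 18.6 to 26.4 and at percentiles 99.48 to 99.94 of their list, PVT1 held 7, LINC00824 2 and LOC124902020 1. Of the 10 highest H3K4me3 summits, from 9.06 to 125.4, PVT1 held 5 and MYC, CASC8 and LINC00824 1 each.

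Within 1000 bp, H3K27ac summits of all scores together had H3K4me1 about as often as in the whole list and H3K4me3 less often, described by shares without a test. H3K4me1 lay within 1000 bp of 117 of the 219 H3K27ac summits (53.4%, 46.8 to 59.9), against 52.8% of all H3K27ac summits. Within 2500 bp the share was 73.5% (67.3 to 78.9), against 67.2%. The intervals treat neighbouring summits as independent and are no test of these differences. H3K4me3 lay within 1000 bp of 44 H3K27ac summits (20.1%, 15.3 to 25.9), against 42.5%. Most of these 44 were in PVT1, where 33 of 66 H3K27ac summits had H3K4me3; between PVT1 and LINC00824 the count was 2 of 57. No other mark accompanied 88 H3K27ac summits (40.2%, 33.9 to 46.8), against 20.4% of the list, and their median score was 4.58. Both other marks accompanied 30 (13.7%), against 15.8%. Of the H3K27ac summits of at least 10, 38 of 52 (73.1%, 59.7 to 83.2) had H3K4me1, against 47.7% of such summits in the list, and 18 (34.6%, 23.2 to 48.2) had H3K4me3, against 63.1%. Under 10, 79 of 167 (47.3%, 39.9 to 54.9) had H3K4me1, against 56.8%, and 26 (15.6%, 10.9 to 21.8) had H3K4me3, against 26.6%. For H3K4me1 the equal share overall thus joined a higher share of strong summits with a lower share of weak ones.

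The H3K27ac summits of at least 10 are described here on either side of the PVT1 end, a split drawn after the values were seen. PVT1 held 35 of the 49 H3K4me3 summits and the 3 segments after it 4, 3 and 2, so few H3K4me3 summits were there to pair with past its end. Of the 20 H3K27ac summits of at least 10 between the MYC start and the PVT1 end, 14 had H3K4me3 within 1000 bp and 12 had H3K4me1. Of the 31 between the PVT1 end and the end of the stretch, 4 had H3K4me3 and 26 had H3K4me1. The median distance to the nearest H3K4me3 summit was 414 bp in the first set and 25417 bp in the second. In the second set H3K4me1 lay within 100 bp of 14 summits. Examples past the end of LINC00824 were H3K27ac of 68.8 at 128603075 with H3K4me1 at 55 bp, 20.2 at 128577091 with H3K4me1 at 11 bp and 25.8 at 128649239 with H3K4me1 at 42 bp. In the body of PVT1, H3K27ac of 43.5 at 127870409 had H3K4me3 at 100 bp and no H3K4me1 within 4.8 kb, and H3K27ac of 30.1 at 127969841 stood without either mark within 2.5 kb.

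From the side of the methylation marks, H3K27ac lay within 1000 bp of 113 of the 188 H3K4me1 summits (60.1%, 53.0 to 66.8), against 49.6% of the list. H3K4me3 lay as near to 32 of them (17.0%, 12.3 to 23.0), against 22.1%. H3K27ac lay as near to 84 of 139 H3K4me1 summits under 10 (60.4%, 52.1 to 68.2), against 48.5% of such summits in the list. At 10 or more the count was 29 of 49 (59.2%, 45.2 to 71.8), against 62.3%. H3K4me3 lay as near to 9 of the 139 under 10 (6.47%, 3.44 to 11.8), against 21.0%. At 10 or more the count was 23 of 49 (46.9%, 33.7 to 60.6), against 34.8%. H3K27ac lay as near to 36 of the 49 H3K4me3 summits (73.5%, 59.7 to 83.8), against 61.5%, a share inside the interval. Split by score, the differences from the list ran in opposite directions. H3K27ac lay near 30 of the 40 H3K4me3 summits under 10 (75%, 59.8 to 85.8), against 48.4% in the list, a share below the interval. At 10 or more H3K27ac lay near 6 of 9 (66.7%, 35.4 to 87.9), against 78.7%, a share inside the interval. H3K4me1 accompanied 29 of the 49 H3K4me3 summits (59.2%, 45.2 to 71.8), against 33.9%, and 22 of these 29 lay in PVT1. The part of low scores in this difference was not tested. Under a score of 10 the share was 24 of 40 (60.0%, 44.6 to 73.7), against 49.4% of such summits in the list. At 10 or more it was 5 of 9 (55.6%, 26.7 to 81.1), against 13.5%. All 3 marks met at 21 of the H3K4me3 summits (42.9%, 30.0 to 56.7), against 23.6%, and 5 had neither other mark (10.2%, 4.44 to 21.8), against 28.2%. Summits were denser here than on average, and the part of density in these shares was not tested.

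**Figure D5:**
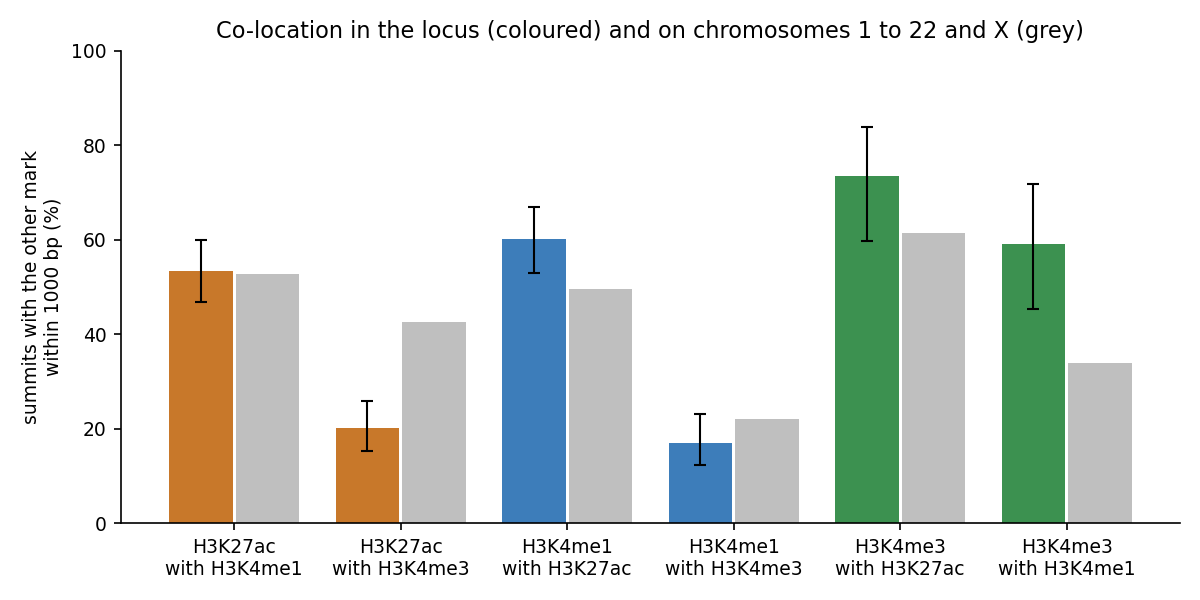
Share of the summits of 1 mark with a summit of another mark within 1000 bp, in the MYC and PVT1 locus (coloured bars, with 95% Wilson intervals) and on chromosomes 1 to 22 and X (grey bars). Summits of all scores are counted together. H3K27ac with H3K4me3 is lower in the locus, at 20.1% against 42.5%, and H3K4me3 with H3K4me1 is higher, at 59.2% against 33.9%.

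The genes that encode the partners and antagonists of MYC in the MAX network mostly carried promoter marks. All 13 genes of the list, MYC included, had H3K4me3 within 1000 bp of a boundary, against 56.8% of protein-coding genes, 10 had H3K27ac against 54.1%, and 1 had H3K4me1 against 12.4%. For MYC that count rests on the summit of 2.07 at its end. MAX itself had best boundary scores of 70.9 for H3K4me3 and 16.7 for H3K27ac. MXD1, an antagonist of MYC, had 80.8 and 70.3, and MNT, another, had 61.5 and 65.5. The paralogues MYCN and MYCL had H3K4me3 of 25.5 and 14.0 and no summit of the other 2 marks. MLXIPL, which encodes the glucose-responsive factor ChREBP of liver, had 6.90 and 2.17 at a boundary and 26.5 and 15.5 at best in the gene.

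The label of a liver cell line was checked against genes that define cell types. Among the hepatocyte genes, ALB, APOA2 and TTR carried no mark, while HNF4A had boundary H3K4me3 of 71.9. The epithelial keratin genes KRT8 and KRT18 shared a boundary summit of 107.3. The fibroblast genes COL1A1 and COL1A2 had no summit. Of the endothelial genes, CDH5 had no summit, while PECAM1 had boundary H3K27ac of 43.9. Of the leukocyte genes, CD3D had no summit, while the best H3K27ac summit within PTPRC scored 38.8.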

How the data were processed

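The authors deposited 1 list of summits per mark, with positions 1 bp wide and a −log10 score of a p-value or q-value; whether p or q was used, and at which cutoff, is not stated in the labels. MACS2, Bowtie, deepTools and Picard with the hg38 build come from the submitters' processing notes, which give no versions or settings. Read depth is unknown, and peak widths and read counts were not analysed here. From 202991 summits, the 273 H3K27ac, 61 H3K4me1 and 185 H3K4me3 summits outside chromosomes 1 to 22 and X were dropped. Positions were made 1-based, and gene boundaries came from NCBI RefSeq on GRCh38.p14, which shares hg38 coordinates and gives no strand here; that MYC and PVT1 start at their lower boundary is background knowledge.

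Co-location meant a distance of at most 1000 bp, clusters joined H3K27ac summits under 12000 bp apart, and mean densities divide counts by the summed length of each chromosome up to its last summit. Shares have 95% Wilson intervals. Windows of 2.5 Mb ran from the start of each chromosome, full windows only. Functions were tested on simulated lists. Python 3.11.15, pandas 2.3.3, numpy 2.4.6 and scipy 1.17.1 were used.

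The members and lists were chosen with earlier results of these data known. Named were MYC, PVT1, the marked genes and the protein-coding genes without a mark, the 10 highest summits per mark, the largest clusters, gaps of at least 100 kb and MAX network genes; unmarked lncRNA and microRNA genes, other sites beside MYC, PVT1 and the CASC genes, and the 2 lncRNA genes above PVT1 were named after their values were seen. One gene of the cell type marker lists is not reported here.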

Additional observations from a re-analysis of the deposited data

How the results depend on the processing

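Of 75 alternatives to 20 results, 34 left a count within 1.5 times its value or a share within its interval, and 41 moved it. With a score of at least 5 or at least 10, the counts fell to 118 and 52 for H3K27ac, 118 and 49 for H3K4me1 and 26 and 9 for H3K4me3. With 500 bp for co-location, H3K27ac had H3K4me1 in 38.8% (whole list 38.2%) and H3K4me3 in 13.7% (31.3%), H3K4me1 had H3K27ac in 44.7% (32.7%), and H3K4me3 had H3K4me1 in 36.7% (23.1%). With 2500 bp these shares were 73.5% (67.2%), 27.4% (53.9%), 80.9% (68.5%) and 81.6% (46.4%), and H3K4me3 had H3K27ac in 85.7% (75.6%). Both lists cut at a score of 5 gave 44.9% of H3K27ac with H3K4me1 (32.5%) and 45.8% of H3K4me1 with H3K27ac (45.5%). Cut at 10, the lists gave 34.6% (8.95%) and 36.7% (39.9%), with 7.69% of H3K27ac having H3K4me3 (44.1%) and 44.4% of H3K4me3 having H3K27ac (66.0%), and as many having H3K4me1 (1.84%). The share of H3K27ac with H3K4me1 was thus above the list's at both cuts and at 2500 bp. That of H3K4me1 with H3K27ac was about equal to the list's at a score of at least 5 and below it at a score of at least 10. Joining under 5000 bp gave 59 clusters, the largest of 17 summits, and under 20000 bp 13 clusters. The largest held 12 summits with a score of at least 5 and 5 with at least 10. For genes of the locus, a window of 500 bp left 2 with H3K27ac and 1 with H3K4me3, and one of 2500 bp gave 5 with H3K4me1. Anywhere in the gene, 6 had H3K4me1 and 7 had H3K4me3. At a score of at least 10, 3 had H3K27ac and 1 had H3K4me1, and at a score of at least 5, 1 had H3K4me1. In the MAX network a window of 500 bp left 5 genes with H3K27ac and 0 with H3K4me1, one of 2500 bp gave 5 with H3K4me1, and the whole gene 9. The share between the MYC start and the LINC00824 end, an alternative chosen after seeing the data, was 87.8% for H3K4me1 and 77.8% for H3K4me3 at a score of at least 10. These settings keep fewer summits or change the distance counted; other causes were not tested. No paired analysis was possible because each mark had 1 library. Depth is unknown, so an empty stretch holds no called summit, which does not show that a mark is absent.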

Other observations

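The megabase before the locus, which holds the protein-coding gene LRATD2, had no H3K27ac and no H3K4me1 summit but 7 H3K4me3 summits with scores of 4.28 to 29.9, none of them with another mark within 1000 bp. The megabase after the locus, with GSDMC, CYRIB and ASAP1, held 61 H3K27ac, 94 H3K4me1 and 29 H3K4me3 summits, with highest scores of 127.9, 27.3 and 113.1. Of those 29 H3K4me3 summits, 25 had another mark within 1000 bp.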
